A study of Mus musculus with 10 samples.

Results

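Mouse chromosome 1 was followed in male C57/Bl6 mouse embryonic stem cells (mESCs) by shallow whole-genome DNA sequencing, and its dose was read from 19548 of the 272566 windows of 10 kb into which the deposited table divides mm10. Every window that the table places on chromosome 1 was taken, and the chromosome was set against the 210733 windows of the 17 autosomes other than chromosomes 1 and 3. Chromosome 3 was kept out of this reference with earlier results of these data known, and its own values are given below. The 10 libraries were 2 independent lines, derived under the modified protocol of the study (Keniry2022) and grown in 2i/LIF medium, each sampled at the start (p0) and after 10 and 20 passages (p10 and p20) under either Mulas2019 or Keniry2022 conditions, so each of the 5 groups had 2 libraries (n = 2). Mulas2019 is an established protocol on which cells are split every other day, whereas Keniry2022 uses daily passaging, denser cultures and no attachment. No agent or allele distinguished the groups. Same-numbered libraries were taken as 1 line, which the Y reads given below go against for p20 Keniry2022. Passages were matched between the protocols, so that days in culture were not.

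Chromosome 1 is the longest mouse chromosome and, as all mouse autosomes, carries its centromere at one end, where segment counting starts here. Cultured mESCs are prone to gain whole chromosomes, and an extra copy of chromosome 1 is among the gains that recur, next to those of chromosomes 8 and 11. A cell with an extra copy of a chromosome yields more reads from it, and in a mixed culture the rise in coverage follows the share of cells that carry the gain. If p0 cells hold 2 copies, an extra copy in every cell raises the log2 ratio by 0.58, and an extra copy in 10% of the cells raises it by 0.070. Coverage also depends on base composition, because GC-rich and AT-rich fragments pass through library preparation and sequencing with different yields, and this dependence can differ between libraries of the same cells.

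The base composition of chromosome 1 is therefore shown first. In mm10 the chromosome is 41.1% G and C, against 42.1% for the 17 reference autosomes, and it alternates between gene-dense GC-rich and gene-poor AT-rich stretches. The following 100 bases (plus strand, G and C in capitals) lie at the centre of the GC-richest 10 kb window of the GC-richest 10 Mb segment and of the GC-poorest window of the GC-poorest segment, and are given because these segments lay near opposite ends of the uncorrected profile.
Segment 20, window of 53.2% GC, chr1:193334951-193335050: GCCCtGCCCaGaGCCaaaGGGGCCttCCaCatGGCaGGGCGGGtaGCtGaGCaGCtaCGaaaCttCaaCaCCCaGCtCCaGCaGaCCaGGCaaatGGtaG
Segment 15, window of 30.7% GC, chr1:146504951-146505050: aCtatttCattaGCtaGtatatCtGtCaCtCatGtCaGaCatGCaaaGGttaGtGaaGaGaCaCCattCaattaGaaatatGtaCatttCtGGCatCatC
The first stretch holds 61 G or C bases in its 100 and the second 35.

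The files gave 27270648 to 35354358 reads per library, of which 2106768 to 2729956 lay on chromosome 1, so that the median 1 Mb bin there held 11174 to 14402 reads and its counting error was 0.833% to 0.946%. No read fell in 347 of the windows (1.78%) in any library, and 346 of these lie in sequence gaps of the assembly, which on this chromosome include everything before position 3000001. After bins with few reads were left out, 193 of 196 bins of 1 Mb remained on chromosome 1. The labels name male cells, yet reads on the Y chromosome separated the lines: replicate 1 of p0, of both Mulas2019 groups and of p10 Keniry2022 held at most 0.00145% of its reads on Y, and replicate 2 of the same groups at least 0.0377%. The libraries labelled p20 Keniry2022 went the other way, with 0.0441% in replicate 1 and 0.000673% in replicate 2, so their replicate numbers go against the other labels and are given below as labelled.

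The label of a recurrent gain was not borne out by the dose of the whole chromosome in these cultures. With each library set to its own curve of coverage against GC content, the median bin of chromosome 1 in the p0 libraries stood at 99.3% and 99.7% of the median bin of the reference autosomes, and in the 8 later libraries it stood between 99.04% and 99.48%. The X chromosome, present once in male cells, stood at 46.4% in both p0 libraries on the same scale, so a difference of 1 copy in 2 was plainly visible. Chromosome 1 thus entered the experiment at the level of the other autosomes and was at that level in every later library. The corrected level of X (39.3% GC) was less steady, at 46.9% to 48.6% in the 8 later libraries. Against p0, X passed the test at p10 Mulas2019 (0.062, adjusted p = 1.18e-05 by limma) and p20 Mulas2019 (0.020, adjusted p = 0.0137 by limma). It also passed at p10 Keniry2022 (0.022, adjusted p = 0.00871 by limma), but not at p20 Keniry2022 (0.014, adjusted p = 0.0819 by limma). The source of these shifts was not tested.

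Set against the p0 library of the same replicate number, the GC-corrected log2 ratio of chromosome 1 was -0.00067 and -0.0041 in the p10 Mulas2019 libraries (replicates 1 and 2). At p20 under the same conditions it was -0.0019 and -0.0041. Under Keniry2022 conditions the ratio was 0.0022 and -0.0032 at p10 and 0.00064 and -0.0095 in the libraries labelled p20. With the 2 p20 Keniry2022 libraries set against the other p0 library instead, their ratios were -0.0045 and -0.0043. As labelled, replicate 1 of both Keniry2022 groups was above 0, by at most 0.0022, and the other 6 libraries were below it. In single libraries the 17 other autosomes scattered around their own p0 values with a standard deviation of 0.0057 to 0.0083, and chromosome 1 lay inside their range each time, between rank 9 and rank 15 from the top of 18. Chromosome 3 was at 0.017 to 0.27 in the 8 libraries, which share the 2 p0 libraries, but it passed the corrected test in none of the 6 comparisons (SE 0.057, adjusted p = 0.141 to 0.856 by limma). Before correction it passed at p10 Mulas2019 (0.19, adjusted p = 0.0139 by limma) and at p20 Mulas2019 (0.22, adjusted p = 0.0122 by limma).

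Tested across all 10 libraries, the GC-corrected dose of chromosome 1 passed the threshold in none of the 6 comparisons. The log2 fold change (log2FC) against p0 was -0.0024 at p10 Mulas2019, -0.0030 at p20 Mulas2019, -0.00048 at p10 Keniry2022 and -0.0044 at p20 Keniry2022, each with a standard error (SE) of 0.0027 and n = 2 per group. Adjusted p-values of limma's moderated test over the 20 chromosomes ranged from 0.298 to 0.886, and the share of chromosomes that passed was 25% for p10 Mulas2019, 5% for p20 Mulas2019, 5% for p10 Keniry2022 and 0% for p20 Keniry2022. The difference between the protocols was 0.0019 at p10 (adjusted p = 0.637 by limma, 30% of chromosomes called) and -0.0014 at p20 (adjusted p = 0.789 by limma, 0% called). The upper ends of the 95% intervals correspond to an extra copy of chromosome 1 in 0.283% to 0.829% of cells, and the lower ends to a missing copy in 0.958% to 1.499% of cells, if p0 cells all hold 2. With 1 library left out, the upper ends rose to at most 1.06% at p10 Mulas2019 (without its replicate 1), 0.959% at p20 Mulas2019 (without its replicate 1), 1.22% at p10 Keniry2022 (without p0 replicate 2) and 0.759% at p20 Keniry2022 (without its replicate 2 as labelled). Without p0 replicate 2 they were 0.675% to 1.22%, and without p0 replicate 1 at most 0.512%. The highest lower end over all ways of processing was 2.24%, at p20 Keniry2022 without the filter on low bins. Before GC correction the upper ends were 4.21% to 11.4%, and the corrected bounds assume that no gain follows GC content. The intervals rest on 2 lines and cover the spread between libraries but not the choice of processing, and this spread is smaller than the scatter among autosomes given above.

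Across all ways of processing that were tried, the 80 GC-corrected values against p0 ran from -0.0104 to 0.0021, which is a change of dose by -0.721% to 0.143%. None was a called increase. In 7 of them the chromosome was called lower, by up to 0.0104 on the log2 scale, among them -0.0073 (adjusted p = 0.0275 by limma) for p10 Mulas2019, -0.0104 (adjusted p = 0.00988 by limma) for p20 Mulas2019 and -0.0098 (adjusted p = 0.0210 by limma) for p20 Keniry2022 when each bin was centred on its own mean over libraries before the median was taken. The value for p20 Mulas2019 lies outside the interval given by the bin medians, whose lower end is -0.0095. That setting was added after the data were seen.

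**Figure D1:**
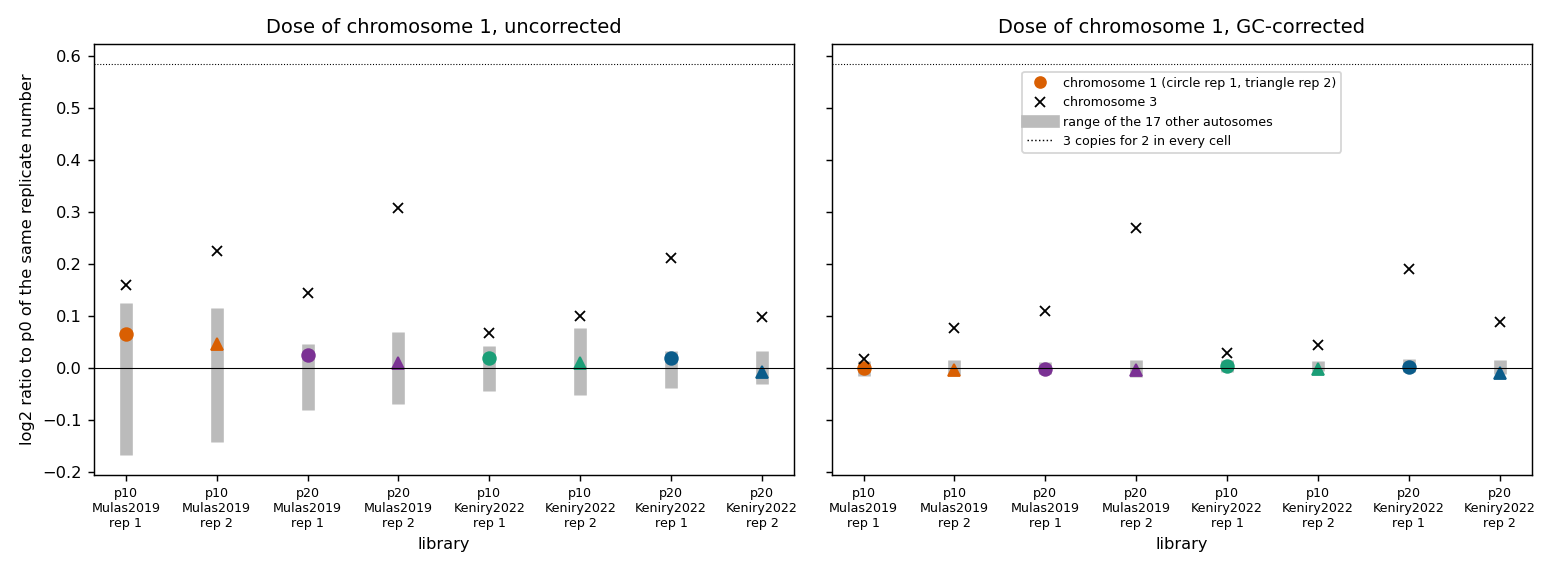
Dose of the whole of chromosome 1 in the 8 later libraries, as log2 ratio to the same-numbered p0 library (y axis), before (left) and after (right) correction for GC content. Circles and triangles are chromosome 1 in replicates 1 and 2, crosses chromosome 3, grey bars the range of the 17 other autosomes, and the dotted line 3 copies for 2 in every cell (0.58). Chromosome 1 lies within the grey range in every library and at -0.0095 to 0.0022 after correction.

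Without the correction the values differ between the groups. The uncorrected log2FC against p0 was 0.055 at p10 Mulas2019 (SE 0.011, adjusted p = 0.00186 by limma), from single-library ratios of 0.064 and 0.045, and 95% of all 20 chromosomes passed the same threshold in this comparison. Uncorrected values were 0.017 at p20 Mulas2019 (adjusted p = 0.187 by limma, 70% of chromosomes called), 0.014 at p10 Keniry2022 (adjusted p = 0.305 by limma, 45% called) and 0.0046 at p20 Keniry2022 (adjusted p = 0.681 by limma, 5% called). At p10 the uncorrected dose was lower under Keniry2022 than under Mulas2019 conditions by -0.041 (SE 0.011, adjusted p = 0.00867 by limma, 90% called), and at p20 the difference was -0.012 (adjusted p = 0.304 by limma, 75% called). The call at p10 between protocols was lost without p10 Keniry2022 replicate 1 (-0.031, adjusted p = 0.0552 by limma), and p20 Mulas2019 passed without p0 replicate 2 (0.032, adjusted p = 0.0421 by limma).

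The libraries differed in how steeply coverage followed GC content. Per percentage point of GC, the log2 coverage of a 1 Mb bin rose by 0.113 and 0.109 in the p0 libraries and by only 0.038 and 0.034 in the p10 Mulas2019 libraries. The slopes were 0.079 and 0.074 at p20 Mulas2019, 0.087 and 0.075 at p10 Keniry2022, and 0.101 and 0.098 at p20 Keniry2022. Chromosome 1 is 1 point poorer in GC than the reference, and of the 4 later groups p10 Mulas2019 had the flattest slopes and the highest uncorrected ratios. Within each of the 4 groups as labelled, the library with the flatter slope had the lower ratio. With the p20 Keniry2022 libraries set against the other p0 library, the uncorrected ratios were -0.0088 and 0.018, and the flatter library had the higher one. The slopes are those of single libraries, whereas the ratios are to p0 libraries whose own slopes differ (0.113 and 0.109). The link between slope and ratio was not tested. Culture condition, DNA preparation and sequencing run cannot be told apart as sources of the slope, since no label gives a batch.

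In 10 Mb segments chromosome 1 split into stretches that were apparently over- and underrepresented before correction. All 20 segments passed the test in p10 Mulas2019 against p0, next to 92.1% of the 266 segments tested in the genome. Of these, 11 were higher, next to 50% of all segments, and 9 lower, next to 42.1%. The count on chromosome 1 was thus near the share in the whole genome. In the other comparisons with p0, 18 of 20 passed for p20 Mulas2019 (88% of all segments), 17 for p10 Keniry2022 (76.7%) and 9 for p20 Keniry2022 (29.7%). Between the protocols 20 passed at p10 (88.7%) and 16 at p20 (79.3%). The 9 segments of p20 Keniry2022 fell to 0 when any 1 of the p0 or p20 Keniry2022 libraries was left out.

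Segment 15 (chr1:140000001-150000000), which is the AT-richest at 37.0% GC and holds only 14 protein-coding genes, had the highest uncorrected value in all 4 comparisons with p0. Its log2 ratio to p0 was 0.56 and 0.69 in the p10 Mulas2019 libraries, 0.22 and 0.27 at p20 Mulas2019, 0.21 and 0.27 at p10 Keniry2022, and 0.11 and 0.13 at p20 Keniry2022. All 8 libraries thus lay above 0, and those of p10 Mulas2019 were near or above the 0.58 of an extra copy in every cell. The log2FC was 0.62 (SE 0.033, adjusted p = 1.69e-07 by limma) at p10 Mulas2019, 0.24 at p20 Mulas2019, 0.24 at p10 Keniry2022 and 0.12 at p20 Keniry2022. It was also the lowest segment between protocols, at -0.38 at p10 and -0.12 at p20. The call at p20 Keniry2022 (adjusted p = 0.0355 by limma) was lost without any 1 of the p0 or p20 Keniry2022 libraries (0.10 to 0.13), and that between protocols at p20 without p20 Mulas2019 replicate 2 (-0.11, adjusted p = 0.0587 by limma).

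After GC correction the same segment passed the test in none of the 6 comparisons. Its 8 ratios ran from -0.030 to 0.0050, and it was the lowest segment of the chromosome in p20 Mulas2019 against p0 (-0.023, adjusted p = 0.287 by limma). Its neighbour, segment 14 (chr1:130000001-140000000), is GC-rich at 44.1%, with 128 protein-coding genes, and had the lowest uncorrected value of the chromosome at p10 Mulas2019, with ratios of -0.20 and -0.19 and a log2FC of -0.20 (SE 0.016, adjusted p = 1.78e-06 by limma). Corrected, the ratios of segment 14 ran from -0.021 to 0.015 over the 8 libraries. Between protocols at p10 the uncorrected values of segment 14 were the highest, at 0.12.

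The lowest uncorrected segments of the remaining comparisons were GC-rich as well. Segment 20, the end of the chromosome (chr1:190000001-195471971, 44.2% GC), was lowest at p20 Mulas2019 (-0.10, adjusted p = 1.00e-04 by limma) and highest between protocols at p20 (0.079, adjusted p = 0.00154 by limma). Segment 19 (chr1:180000001-190000000, 44.1% GC) was lowest at p10 Keniry2022 (-0.073, adjusted p = 0.000519 by limma), and segment 16 (chr1:150000001-160000000, 42.5% GC) at p20 Keniry2022 (-0.044, adjusted p = 0.0261 by limma).

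**Figure D2:**
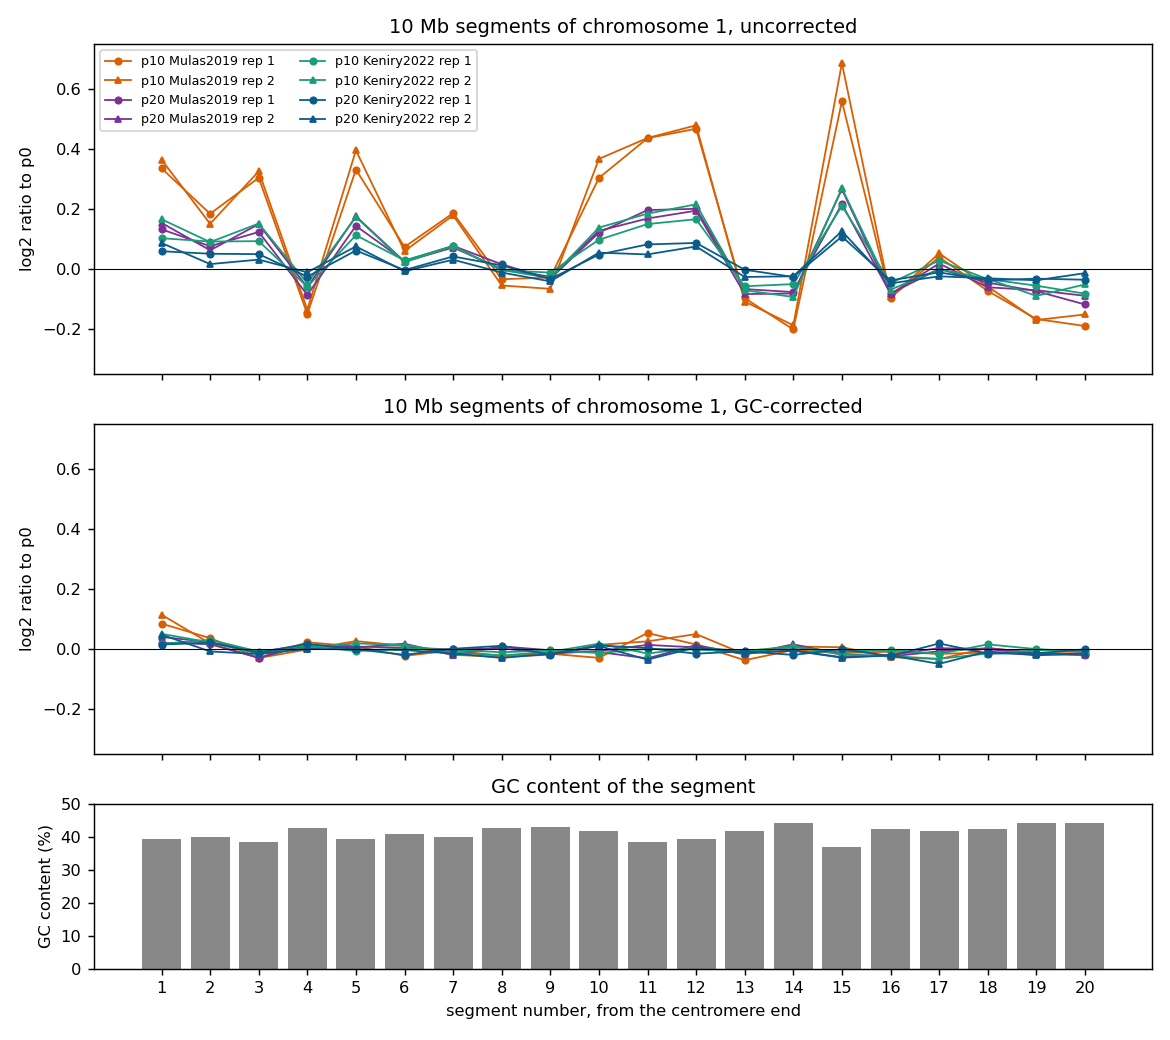
Log2 ratio to the same-numbered p0 library in the 20 segments of 10 Mb along chromosome 1 (x axis, counted from the centromere end), before correction (top), after correction (middle), and the GC content of each segment in percent (bottom). Each line is 1 of the 8 later libraries. The uncorrected profile reaches 0.69 in segment 15 and -0.20 in segment 14, and after correction all values but those of segment 1 in the p10 Mulas2019 libraries stay within -0.050 and 0.053.

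The segments were then grouped by base composition. The 7 segments under 40% GC hold 196 of the 1208 protein-coding genes of the chromosome, and their uncorrected ratios lay above 0 in every later library, from 0.030 to 0.69. The 8 segments over 42% GC hold 709 genes, and they lay between -0.20 and -0.029 in the p10 Mulas2019 libraries and between -0.20 and 0.015 over all 8. The 5 segments in between hold 303 genes and spread from -0.11 to 0.37. Among them, segments 10 and 13 went opposite ways at p10 Mulas2019 despite a GC content of 41.7% and 41.6%, with ratios of 0.30 and 0.37 in segment 10 and of -0.098 and -0.11 in segment 13. Pearson's r between the GC content of the 20 segments and their uncorrected ratio was -0.928 to -0.841 over the 8 libraries, as a description of segments that share their library, and after correction it was -0.411 to -0.012. The standard deviation over the 20 segments was 0.24 and 0.26 in the p10 Mulas2019 libraries before correction, and 0.031 and 0.034 after it.

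**Figure D3:**
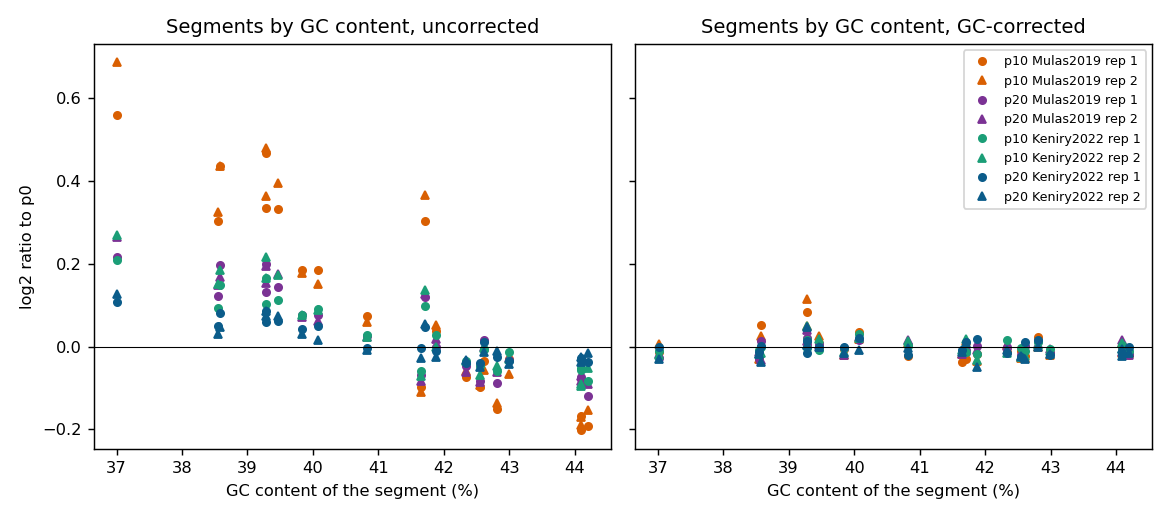
GC content of the 20 segments of chromosome 1 in percent (x axis) against their log2 ratio to p0 (y axis), before (left) and after (right) GC correction, with 1 point per segment and later library. The uncorrected ratios fall from at most 0.69 at 37.0% GC to below 0 above 44% GC, most steeply in the p10 Mulas2019 libraries, and the corrected ratios lie along 0.

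On the corrected scale few segments of chromosome 1 passed the test, and among them segment 1 moved furthest. In p10 Mulas2019 against p0, 5 of 20 passed, or 25%, next to 23.3% of all 266 segments, 3 higher and 2 lower. The counts were 0 for p20 Mulas2019 (0% of all segments), 0 for p10 Keniry2022 (0.752%) and 0 for p20 Keniry2022 (0%), with unadjusted p-values of limma under 0.05 in 5, 2 and 4 of the 20 segments. Between the protocols 1 segment passed at p10 (4.51% of all) and 0 at p20 (0.376%), the latter with 1 segment at an unadjusted p under 0.05. The 5 of p10 Mulas2019 became 1 without p0 replicate 1, p0 replicate 2 or p10 Mulas2019 replicate 1, 2 without p10 Mulas2019 replicate 2 and 3 without p20 Keniry2022 replicate 1 (as labelled), and they became 11 with means in place of medians.

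The segment next to the centromere (segment 1, chr1:1-10000000, 7 bins with reads, 39.3% GC) was the highest on the corrected scale in all 4 comparisons with p0. Its ratios were 0.084 and 0.114 in the p10 Mulas2019 libraries, 0.020 and 0.039 at p20 Mulas2019, 0.017 and 0.050 at p10 Keniry2022, and 0.014 and 0.047 at p20 Keniry2022. All 8 libraries were thus above 0, and both p10 Mulas2019 libraries were above the other 6. The log2FC was 0.099 (SE 0.0095, adjusted p = 0.000445 by limma) at p10 Mulas2019, and 0.030, 0.033 and 0.031 in the order p20 Mulas2019, p10 Keniry2022 and p20 Keniry2022, with adjusted p-values of limma of 0.107, 0.237 and 0.195. Between the protocols at p10 the segment was lower under Keniry2022 by -0.066 (adjusted p = 0.0110 by limma), the only segment of the chromosome that passed there.

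The size of this shift rests on how its bins were combined. With the mean over bins the log2FC at p10 Mulas2019 was 0.047 (adjusted p = 0.00132 by limma), and with bins centred on their own mean 0.041 (adjusted p = 0.000655 by limma). The difference between protocols shrank to -0.019 (adjusted p = 0.0822 by limma) and -0.017 (adjusted p = 0.0477 by limma), and was -0.064 (adjusted p = 0.0565 by limma) without p10 Mulas2019 replicate 1. At p20 Mulas2019 and p10 Keniry2022 the segment passed without the filter on low bins (0.051 and 0.052) and with centred bins (0.027 and 0.024), and at p10 Keniry2022 also without p0 replicate 1 (0.048). Bin by bin, 6 of the 7 bins lay above 0 in p10 Mulas2019 replicate 1 and 7 in replicate 2, and in the other libraries 5 to 7 did. The median bin ratio was 0.043 and 0.043 at p10 Mulas2019. In the other libraries it ran from 0.013 in p20 Keniry2022 replicate 1 (as labelled) to 0.040 in p10 Keniry2022 replicate 2. The end of the chromosome (segment 20) did not share the shift, with corrected ratios of -0.022 to -0.0019.

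The 4 other called segments lay within 0.04 of p0 on the log2 scale. Segment 11 (chr1:100000001-110000000) was higher in p10 Mulas2019 by 0.039 (adjusted p = 0.0484 by limma) and segment 12 (chr1:110000001-120000000) by 0.031 (adjusted p = 0.0423 by limma). Each holds 22 protein-coding genes, at a GC content of 38.6% and 39.3%. Segment 3 (chr1:20000001-30000000, 38.6% GC) was lower by -0.031 (adjusted p = 0.0188 by limma), the lowest of the chromosome in this comparison, and segment 13 (chr1:120000001-130000000, 41.6% GC) by -0.028 (adjusted p = 0.0308 by limma). The lowest corrected segments elsewhere, segment 17 (chr1:160000001-170000000) at p10 Keniry2022 (-0.025, adjusted p = 0.581 by limma) and segment 16 at p20 Keniry2022 (-0.023, adjusted p = 0.198 by limma), did not pass. Between the protocols the highest was segment 13 at p10 (0.019, adjusted p = 0.151 by limma) and segment 10 (chr1:90000001-100000000) at p20 (0.019, adjusted p = 0.533 by limma), where segment 6 (chr1:50000001-60000000) was lowest (-0.023, adjusted p = 0.517 by limma).

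At a resolution of 1 Mb no bin came near the value of an extra copy after GC correction. Before it, the highest bin reached 0.60 and 0.73 in the p10 Mulas2019 libraries and 0.14 to 0.34 in the other 6. The 193 bins of chromosome 1 in the 8 later libraries ran from -0.12 to 0.12 on the GC-corrected scale, against 0.58 for an extra copy in every cell. Their standard deviation was 0.040 and 0.039 in the p10 Mulas2019 libraries and 0.024 to 0.029 in the other 6, where counting error alone gives 0.018 to 0.019. In the 2041 bins of the reference autosomes it was 0.044 and 0.044 in the p10 Mulas2019 libraries, and in the other 6 0.024 to 0.032. In 1 Mb bins chromosome 1 thus varied along its length about as much as the other autosomes. Over 10 Mb segments the corrected standard deviation at p10 Mulas2019 was 0.031 and 0.034 on chromosome 1, against 0.025 and 0.024 on the other autosomes. In the other 6 libraries it was 0.012 to 0.020 on chromosome 1, against 0.015 to 0.018.

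The bin with the highest mean over the 8 later libraries was chr1:8000001-9000000 in segment 1, which holds no protein-coding gene, at 38.1% GC. Its corrected ratios were 0.085 and 0.12 at p10 Mulas2019, 0.044 and 0.094 at p20 Mulas2019, 0.049 and 0.093 at p10 Keniry2022, and 0.033 and 0.048 at p20 Keniry2022. The lowest was chr1:70000001-71000000, with 1 protein-coding gene and 38.2% GC, at -0.12 and -0.081 for p10 Mulas2019, -0.052 and -0.056 for p20 Mulas2019, -0.043 and -0.050 for p10 Keniry2022, and -0.054 and -0.035 for p20 Keniry2022. Both bins were chosen as the extremes of this mean and carry no test. Before correction both lay above 0 in all 8 libraries, at 0.014 to 0.55.

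Chromosome 1 carries genes that bear on the identity, survival and replication of stem cells, and the dose at 22 such loci was read from each gene body with 250 kb on either side. Of these, 8 share windows with a neighbour, so the loci are not independent. All 22 lay within 0.1 of p0 on the GC-corrected log2 scale in all 8 later libraries, from -0.070 to 0.088, where counting error alone gives 0.022 to 0.026. The same held for 187 and 189 of the 193 bins of 1 Mb in the p10 Mulas2019 libraries and for all 193 in the other 6, so this count is near the share over the chromosome. Uncorrected, they spread from -0.35 to 0.25.

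Among regulators of pluripotency and lineage, Prdm14 (chr1:13113457-13127163), which shields naive cells from differentiation signals, had corrected ratios of 0.039 and -0.017 at p10 Mulas2019, 0.058 and 0.062 at p20 Mulas2019, 0.088 and 0.039 at p10 Keniry2022, and 0.039 and -0.010 at p20 Keniry2022. Its value in p10 Keniry2022 replicate 1 was the highest of the 22 loci, while replicate 2 of p10 Mulas2019 and of p20 Keniry2022 lay below 0. Nr5a2 (chr1:136842571-136960448), a nuclear receptor that sustains Oct4 expression, had the lowest value, -0.070 in p10 Mulas2019 replicate 2, but -0.011 in replicate 1. Tfcp2l1 (chr1:118627945-118685168), a transcription factor downstream of LIF, ranged from -0.060 to 0.014. Zfp281, which promotes the exit from the naive state, ranged from -0.056 to 0.033, Klf7 from -0.053 to 0.016, and the Nodal inhibitors Lefty1 and Lefty2, which lie next to each other, from -0.063 to 0.060. Sox17 (chr1:4490931-4497354), the endoderm factor in segment 1, was above 0 in all 8 libraries, at 0.0051 to 0.078.

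Among genes of cell death and survival, Mdm4 (chr1:132959484-133030561), an inhibitor of p53, had uncorrected ratios of -0.35 and -0.28 at p10 Mulas2019, the former the lowest value of all loci, in a region of 48.0% GC. Its corrected ratios were -0.037 to 0.011. The anti-apoptotic gene Bcl2 (chr1:106538178-106714274) lay between -0.026 and 0.037, and the initiator caspase gene Casp8 between -0.018 and 0.036. Cflar, which encodes the inhibitor of caspase-8, lies beside Casp8 and ranged from 4.4e-06, effectively 0, in p10 Keniry2022 replicate 2 to 0.056. Trp53bp2, whose product enhances p53 activity, lay between -0.020 and 0.063. Cdc73 (chr1:143598800-143702893), a subunit of the Paf1 transcription complex, sits in the AT-rich segment 15 and had uncorrected ratios of 0.21 and 0.25 at p10 Mulas2019. After correction it was below 0 in all 8 libraries, at -0.053 to -0.0073.

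Genes of replication, repair and chromosome segregation behaved likewise. The replicative helicase subunits Mcm3 and Mcm6 lay at -0.018 to 0.033 and -0.035 to 0.024, and the origin recognition subunit Orc2 at -0.012 to 0.041. Of the repair genes, Parp1 lay at -0.042 to 0.0043, Xrcc5, which encodes Ku80, at -0.056 to 0.021, and Bard1, the partner of Brca1, at -0.042 to 0.0038. Exo1, a DNA exonuclease, was below 0 in all 8 libraries at -0.058 to -0.025, with p10 Mulas2019 at -0.025 and -0.029 and p20 Keniry2022 at -0.041 and -0.058. Cenpf, a kinetochore protein gene in segment 19, lay at -0.067 to 0.020. Of the 22 loci, Cdc73 and Exo1 were below 0 in all 8 libraries, and Sox17 and Cflar above 0. These 4 loci are 18.2% of the list, next to 20.7% of the 193 bins and 8 of the 20 segments that kept one sign, and the 8 ratios share the 2 p0 libraries.

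**Figure D4:**
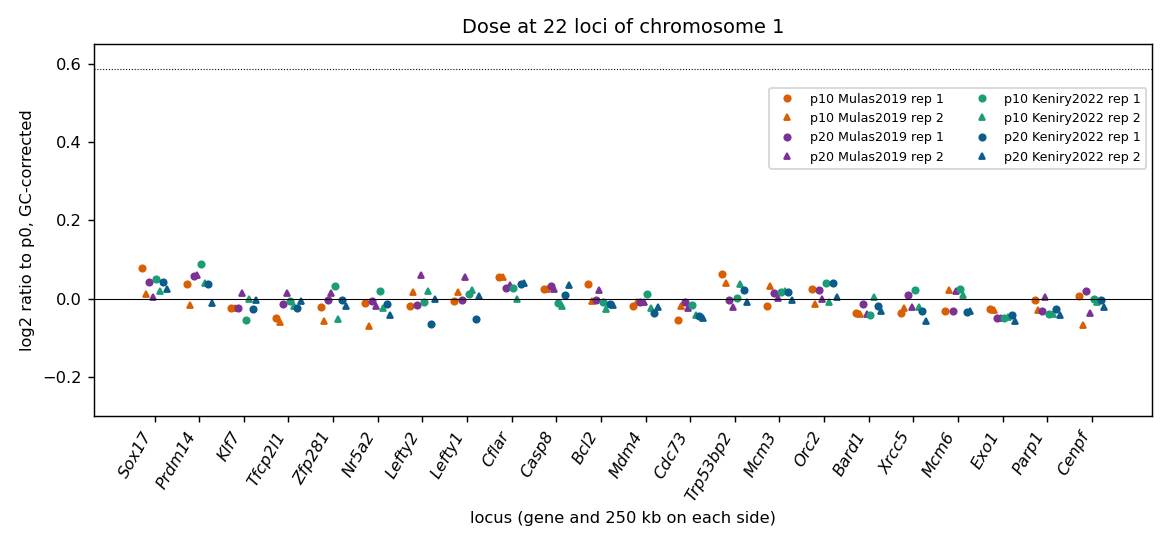
GC-corrected log2 ratio to p0 (y axis) at 22 loci of chromosome 1 (x axis), with 1 point per later library, ordered by role (pluripotency and lineage, survival, replication and repair). All points lie between -0.070 and 0.088, far from the dotted line at 0.58 that marks 3 copies for 2 in every cell.

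One feature of chromosome 1 stood out in every library, p0 included. Of its windows, 11 held more than 5 times the median reads, and 10 of them were adjacent, at chr1:88210001-88310000. This block was chosen after its values were seen. It covers all of Ugt1a1, Mroh2a and Hjurp, the shared 3' end of the other Ugt1a genes, which encode enzymes that conjugate bilirubin and drugs for excretion, and the first part of Trpm8, which encodes a cold-sensing channel. Hjurp (chr1:88262471-88277633, minus strand) encodes the chaperone that loads the histone variant CENP-A at centromeres. Its promoter sits inside the block and is shown because it lies in the longest run of high-count windows on the chromosome. The sequence, from RefSeq (GRCm38.p6), runs 5' to 3' on the minus strand, with CG dinucleotides in capitals.
Hjurp promoter, chr1:88277530-88277829: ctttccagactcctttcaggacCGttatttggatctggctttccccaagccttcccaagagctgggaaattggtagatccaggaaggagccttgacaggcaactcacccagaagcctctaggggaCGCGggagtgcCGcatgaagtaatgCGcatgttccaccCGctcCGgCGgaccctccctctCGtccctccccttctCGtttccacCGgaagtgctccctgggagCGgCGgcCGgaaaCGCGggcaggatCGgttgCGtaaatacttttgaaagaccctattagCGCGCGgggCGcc
It holds 22 CG dinucleotides in 300 bases.

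Reads per window in the block exceeded those in the 100 windows around it by 5.73 and 5.69 times in the p0 libraries. The ratio was 5.71 and 5.47 at p10 Mulas2019, 5.69 and 5.56 at p20 Mulas2019, 5.53 and 5.57 at p10 Keniry2022, and 5.97 and 5.72 in the libraries labelled p20 Keniry2022. The block was thus present before the experiment, in both lines, and its size ranged only from 5.47 to 5.97. Group means were 5.71 ± 0.029 (SD, n = 2) at p0, 5.59 ± 0.17 at p10 Mulas2019, 5.63 ± 0.089 at p20 Mulas2019, 5.55 ± 0.027 at p10 Keniry2022 and 5.85 ± 0.17 at p20 Keniry2022. After GC correction (47.1% GC in the block, 44.9% around it) the ratios ran from 5.16 to 5.59, with means of 5.27 ± 0.021 (SD, n = 2) at p0, 5.46 ± 0.18 at p10 Mulas2019, 5.34 ± 0.045 at p20 Mulas2019, 5.23 ± 0.098 at p10 Keniry2022 and 5.41 ± 0.14 at p20 Keniry2022. The means of both Mulas2019 groups thus lay below that of p0 before correction and above it after, and no test was run on these ratios. Whether the block reflects extra copies in these lines or reads that map there from elsewhere was not tested. It took at most 0.438% of the reads of the chromosome together with the 1 other high window, at chr1:183290001-183300000.

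**Figure D5:**
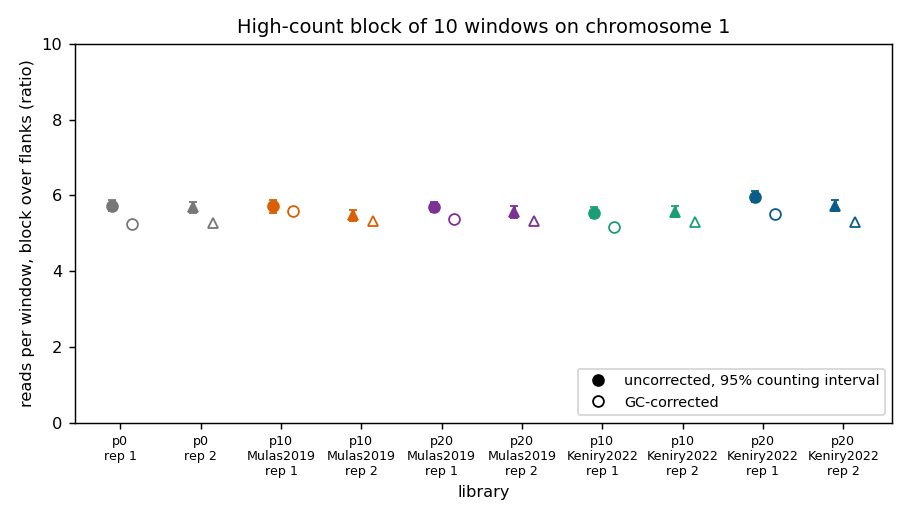
Ratio of reads per 10 kb window in the high-count block to those in the 100 windows around it (y axis, from 0) in each of the 10 libraries (x axis). Filled symbols are uncorrected with 95% intervals that cover counting error only, open symbols are GC-corrected, circles are replicate 1 and triangles replicate 2. All 10 libraries, p0 included, lie between 5.47 and 5.97 before correction and between 5.16 and 5.59 after it.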

How the data were processed

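Genomic DNA of 10 cultures was sequenced, and groups and replicate numbers came from the sample titles. The authors deposited 1 table of log2 values in 10 kb windows. The submitters' notes name bcl2fastq, Bowtie2 and the build mm10, without versions. The table is named for CPM, but the deposited log2 values equalled whole reads scaled to the largest library, windows without a read being set to 0.9 reads. Within 0.1 reads, 100.0% of values came out whole, which gave 27270648 to 35354358 reads per library. The treatment of repeat-mapping reads was not given in the sources used, and no blacklisted window had been removed, which can raise counts over repeats.

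Reads were summed in bins of 1 Mb, and bins under 0.1 of the median bin were left out. Log2 values were centred on the median of the autosomes other than 1 and 3. For the GC-corrected scale a loess curve (span 0.3) of log2 value on GC content, fitted per library on the same autosomes, was subtracted, which would also remove any true gain that follows GC content. The median bin gave the value of a chromosome, or of a 10 Mb segment with at least 3 bins. All 10 libraries were fitted together with limma 3.58.1 (R 4.3.3, statmod 1.5.0; empirical Bayes, cell line as a random block), with Benjamini-Hochberg adjustment at 0.05 over 20 chromosomes or 266 segments. The methods state that each line was split between the conditions. Same-numbered libraries were taken as 1 line, which the Y reads of the p20 Keniry2022 libraries go against. The consensus correlation within a line was -0.039 and -0.068 for chromosomes before and after correction, and 0.131 and -0.061 for segments. On data simulated for p20 Mulas2019 against p0, with GC slopes that differed between libraries, the corrected fit recovered nearly all changes put in but called more unchanged segments than the adjustment aims at, and the uncorrected fit called most unchanged segments. Intervals of block ratios cover counting error only, since PCR copies carry no molecular identifiers.

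Named segments are the highest and lowest of each comparison, and named bins the extremes of the mean corrected ratio. The 22 loci, taken from the GENCODE annotation of the same build, carry no test. Chromosome, loci and rules were chosen with earlier results of these data known. The alternatives were another block, filter, reference, summary, GC curve or segment length, voom on recovered reads, and leaving out each library.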

Additional observations from a re-analysis of the deposited data

Results flagged for a closer look

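Chromosome 1 differed between the protocols at p10 before GC correction. The whole chromosome was lower under Keniry2022 than under Mulas2019 conditions by -0.041 on the log2 scale (adjusted p = 0.00867 by limma), next to 90% of all chromosomes called, and 20 of its 20 segments of 10 Mb differed, next to 88.7% of all segments. At p20, 16 of the 20 segments differed before correction, next to 79.3% of all. After correction 1 of the 20 segments differed at p10, the one next to the centromere, against 4.51% of all segments. The call on that segment was lost with the mean over bins and kept with centred bins, as given above. The whole chromosome did not pass after correction (0.0019, adjusted p = 0.637 by limma). The GC slopes of these libraries are given above, and their part in the uncorrected differences was not tested.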

How the results depend on the processing

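The uncorrected dose of chromosome 1 at p10 Mulas2019 and the difference between protocols at p10 kept direction and call under all alternatives except the left-out libraries below. With the mean over bins, p20 Mulas2019 (0.021), p10 Keniry2022 (0.018) and the difference at p20 (-0.021) passed uncorrected, likewise with voom (0.021, 0.018 and -0.022) and with centred bins (0.030, 0.026 and -0.030). On the corrected scale p20 Keniry2022 became a called decrease with all autosomes as reference (-0.0091), with the mean (-0.0086), with the GC curve on all autosomes (-0.0093) and with centred bins (-0.0098), p20 Mulas2019 with the mean (-0.0090) and centred bins (-0.0104), and p10 Mulas2019 with centred bins (-0.0073). Centring was chosen after seeing the data. Corrected segment counts of p10 Mulas2019 moved to 3 (all autosomes), 11 (mean) and 5 of 39 (segments of 5 Mb). Those of p20 Mulas2019 moved to 1 (no filter on low bins) and 2 (centred), those of p10 Keniry2022 to 1 in both settings, and those between protocols at p10 to 3 (mean), 2 (centred) and 1 of 39 (5 Mb). Uncorrected p20 Keniry2022 gave 7 of 39 at 5 Mb. The causes were not tested.

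Leaving out 1 library gave an uncorrected dose of 0.0018 to 0.032 for p20 Mulas2019 and -0.052 to -0.031 between protocols at p10. The uncorrected values that did not pass changed sign for p10 Keniry2022 (-0.0014 to 0.029) and p20 Keniry2022 (-0.011 to 0.020), and the difference at p20 ran from -0.020 to -0.0051. Uncorrected segment counts ran from 0 to 9 for p20 Keniry2022, and corrected ones from 1 to 5 for p10 Mulas2019, 0 to 1 for p10 Keniry2022 and 0 to 2 between protocols at p10. A library left alone in its group was assumed to vary like the others.

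Without the replicate block the corrected count between protocols at p10 was 2, as with the pairing of p20 Keniry2022 crossed (2). With the line as a fixed block the p10 Mulas2019 dose was 0.055 (adjusted p = 0.000512 by limma) before and -0.0024 (adjusted p = 0.681 by limma) after correction. The block changed no call for the whole chromosome. Depth limits single 1 Mb bins, where counting error alone is 0.018 to 0.019. No counting error was computed for the value of the whole chromosome.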
